A study of Mus musculus with 2 samples.

Results

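The wide peaks described here come from an anti-FLAG CUT&Tag library of mouse hippocampus. They were the 818 peaks (of 99797 in the deposited list) at least 1500 bp wide with a maximum signal under 400. They made up 0.820% of the peaks, 3.62% of the bases under peaks (1.52 Mb) and 3.83% of the total signal. Of the 818, 809 lay on the numbered chromosomes 1 to 19 or on X or Y, and the other 9 lay on unplaced or unlocalized scaffolds. The authors' annotation table held a row for 817 of them. The peaks were selected on their width and maximum signal, so both values, and the total signal that follows from them, are described below without a test. CamK-PARIS mice of the C57BL/6J strain gave hippocampal tissue for the 2 libraries of the series, in which anti-FLAG marked the bound chromatin and IgG served as the control. All tissue therefore carried that genotype, and mice without it were not analysed here. The labels do not spell out the promoter or the tag behind the genotype's name, the age of the mice or the number of animals per library. The IgG library entered the peak list through the authors' peak calling only, the files give no sequencing depth, and with 1 library per antibody no value has a replicate error.

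PARIS is the zinc finger protein encoded by Zfp746, known as a transcriptional repressor that parkin marks for degradation and that binds insulin response sequences, among them those in the promoter of Ppargc1a. In CUT&Tag the antibody tethers the transposase Tn5 to chromatin, which cuts and tags the DNA around the bound site, and SEACR reports unbroken stretches of signal whose summed signal passes a threshold set from the control. A wide peak is thus a long unbroken stretch of cut DNA. Open promoters, which in mammals often lie in CpG islands, and repeated DNA, where reads from many copies can pile up, are both places where such stretches are known to occur.

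The sequences shown first contrast very wide peaks at gene starts with peaks far from the gene start that the authors assigned. Each is the 200 bp window nearest to the centre of that peak's maximum that lies inside the peak and outside annotated exons, on mm10, plus strand, with CG dinucleotides in capitals. Kmt2a encodes a histone H3 lysine 4 methyltransferase and Sptbn4 a spectrin of the axon initial segment. Their windows lie at chr9:44881362-44881561 and chr7:27395466-27395665.
Kmt2a: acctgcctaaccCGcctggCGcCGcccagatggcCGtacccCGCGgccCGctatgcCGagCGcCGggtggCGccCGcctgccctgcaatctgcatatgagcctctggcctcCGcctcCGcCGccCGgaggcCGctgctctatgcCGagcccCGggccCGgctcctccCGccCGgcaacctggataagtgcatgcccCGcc
Sptbn4: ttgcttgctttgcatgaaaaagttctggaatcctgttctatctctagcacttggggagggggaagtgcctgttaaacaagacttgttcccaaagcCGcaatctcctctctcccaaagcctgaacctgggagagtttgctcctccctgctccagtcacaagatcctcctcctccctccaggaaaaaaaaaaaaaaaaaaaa
The Kmt2a window held 23 CG dinucleotides, while the Sptbn4 window, also within 1 kb of a transcription start site (TSS), held 1.

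The windows of 3 far peaks lie at chr16:7937880-7938079, chr14:119468515-119468714 and chr16:75307207-75307406, and carry the name of the gene whose TSS the authors assigned, at signed distances of 487156, -280526 and 260367 bp. The nearest GENCODE TSS of any gene lay 67878, 175397 and 91967 bp from the centres of their maxima.
Tmem114: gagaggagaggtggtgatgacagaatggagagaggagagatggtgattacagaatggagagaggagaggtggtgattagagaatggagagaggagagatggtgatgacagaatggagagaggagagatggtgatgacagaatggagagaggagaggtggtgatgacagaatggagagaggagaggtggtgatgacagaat
1700006F04Rik: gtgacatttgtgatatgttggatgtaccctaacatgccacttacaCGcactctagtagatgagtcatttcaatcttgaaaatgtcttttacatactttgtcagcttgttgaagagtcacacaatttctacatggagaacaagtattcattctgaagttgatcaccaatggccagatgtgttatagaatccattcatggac
Lipi: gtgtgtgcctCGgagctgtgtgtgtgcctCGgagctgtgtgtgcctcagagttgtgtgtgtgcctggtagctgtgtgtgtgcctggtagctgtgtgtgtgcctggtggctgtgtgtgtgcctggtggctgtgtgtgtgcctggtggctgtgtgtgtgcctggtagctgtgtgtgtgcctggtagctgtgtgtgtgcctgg
The Tmem114 window is built of a short unit repeated along its whole length, 100% of its bases are repeat-masked, and it holds 0 CG dinucleotides. The Lipi window is 92.5% repeat-masked and the 1700006F04Rik window 0%. The shares of wide peaks that were CG-rich or repeat-masked are given below.

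The insulin response sequence was searched as TATTTTT or TATTTTG on both strands, and the next 3 windows of 60 bp show a copy, in capitals, inside peaks that held 4 or 5 of them. These short windows were added after the values were seen, because the 200 bp windows taken in the peaks at Borcs6, Peg13 and Snap25 held none. They lie at chr11:69064433-69064492, chr2:136712842-136712901 and chr5:65765393-65765452.
Borcs6: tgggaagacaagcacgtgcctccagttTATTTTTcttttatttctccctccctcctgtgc
Snap25: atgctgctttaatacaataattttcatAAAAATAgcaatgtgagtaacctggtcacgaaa
N4bp2: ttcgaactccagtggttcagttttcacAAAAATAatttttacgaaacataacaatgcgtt
The copy in the Borcs6 peak lay 138 bp from the centre of the maximum, that in the Snap25 peak 448 bp and that in the N4bp2 peak 439 bp. The last 2 are read on the minus strand, as AAAAATA.

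Widths ran from 1500 to 5869 bp with a median of 1710.5 bp (quartiles 1583 and 1955.75), and 185 peaks were 2000 bp or wider, 64 were 2500 bp or wider, 23 were 3000 bp or wider and 7 were 4000 bp or wider. The maximum signal, a coverage value in the authors' units, ran from 7 to 399 with a median of 223.5. It was under 100 in 73 peaks, under 50 in 17 and under 20 in 9. The total signal, which adds the coverage of every base, had a median of 146044 and ran from 5991 to 470339. The plot of width against maximum signal shows the 818 peaks at the wide end of the list. Their median maximum of 223.5 was above the median of 101 in all peaks outside scaffolds.

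**Figure D1:**
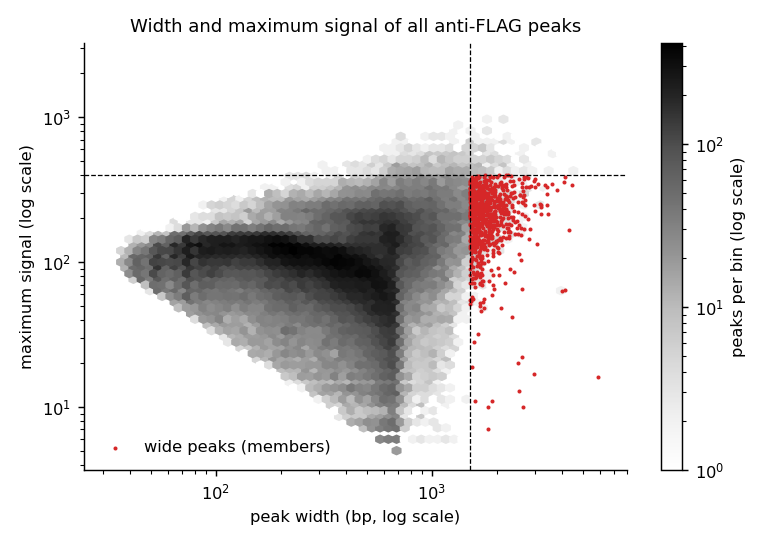
Width in bp (log scale) against maximum signal (log scale) for all peaks of the anti-FLAG library, as a density of peaks per bin, with the 818 wide peaks as red points. The wide peaks run from 1500 to 5869 bp and from a maximum of 7 to 399.

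At the width limit, Adora1 and Plekhd1 (both 1500 bp) and Ywhah (1501 bp) lay just inside, and Gm16938 and Ncoa3 (both 1 bp short of the limit) and Iqgap2 (1498 bp) just outside. At the limit on the maximum, Acot11, Bicral and Sorcs3 peaked at 399, and the peaks at Ildr2, Mfge8 and Mir3089 that were left out peaked at 400. Another peak assigned to Mir3089 was inside, with a maximum of 389.

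The peaks were not flat. The total signal as a percent of the rectangle given by the maximum and the width had a median of 37.5%, and the region of maximum signal had a median width of 42 bp, or 2.29% of the peak. The peak assigned to Olfr225, an olfactory receptor gene, came nearest to a rectangle, at 73.3% with a maximum of 54. Peaks at Nrip1 (69.2%), a corepressor of nuclear receptors, Mir684-1 (67.2%), Cartpt (66.2%), a neuropeptide precursor, and Hes5 (65.5%), a repressor downstream of Notch, followed. The most pointed were at Swsap1 (14.1%), Sap130 (14.4%), 8430426J06Rik (15.1%), Zbtb7c (15.8%) and Prmt8 (17.1%). In the peak at Sap130 a maximum of 175 stood on a mean of 25.2 per base, whereas in the peak at Hes5 a maximum of 200 stood on a mean of 131.

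The 10 widest peaks fell into 2 kinds. Peaks over an annotated TSS were those at Nrxn2, a presynaptic adhesion molecule (4458 bp, maximum 341), Kmt2a (4161 bp, maximum 387), Egr3, a zinc finger factor of the immediate early response (4099 bp, maximum 356), Sptbn4 (3628 bp, maximum 345) and Cacng8, an auxiliary subunit of AMPA receptors (3472 bp, maximum 215). The other 5 were at least 80% repeat-masked and had no TSS inside. These were assigned to Smurf2 (5869 bp, maximum 16), Ndst3 (4317 bp, maximum 167), Trappc6b (4126 bp, maximum 64), Nsmce2 (4013 bp, maximum 63) and Gm15421 (3789 bp, maximum 315). The widest of all, at chr11:106943810-106949678 at -23890 bp from the TSS of Smurf2, a ubiquitin ligase, was 100% masked, held no CG dinucleotide and had a mean signal of 7.45 per base. The Egr3 peak had a mean of 115 per base and held 272 CG dinucleotides.

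The Egr3 peak also had the highest total signal of the wide peaks, 470339, which was rank 51 among all peaks. Zfp444 (466844), Nrxn2 (464077), Gse1 (448835), Ywhaz (445789), Kmt2a (428899), Gm15421 (411000), Tspan9 (410156), Tfeb (387788) and Mir3089 (381540) followed. Tfeb encodes a transcription factor of lysosomal genes and Ywhaz a 14-3-3 protein. Of these 10 peaks, 7 lay over a TSS. The peak at Tspan9, a tetraspanin, lay in intron 2 of 7 of a Tspan9 transcript, 13279 bp from the assigned TSS.

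The region of maximum signal lay within 1 kb of the TSS that the authors assigned in 365 of the 817 annotated wide peaks, or 44.7% (95% Wilson interval 41.3 to 48.1), against 15.3% of all annotated peaks. Intervals here and below cover counting error over the peaks of 1 library only, and no p-value is given because peaks of 1 library are not replicates. The share was 31.8% (30.3 to 33.4) in the 3608 annotated peaks from 1 kb to under 1.5 kb wide and with the same limit on the maximum, and 54.1% (47.5 to 60.6) in the 218 peaks that were as wide but reached a maximum of 400 or more. The share in the wide peaks thus lay between those of the narrower and the taller peaks. In 34 wide peaks (4.16%, interval 2.99 to 5.76) the region of maximum signal overlapped the TSS itself, at distance 0, Gse1, Tfeb and Shank3 among them. This share was 3.03% in all annotated peaks, 4.49% in peaks of 1 to 1.5 kb and 4.59% in the tall wide ones. All of these lay inside the interval of the wide peaks.

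Among peaks with a maximum under 400, the share within 1 kb of a TSS was 13.2% below 0.7 kb, 25.7% from 0.7 to 1 kb, 29.5% from 1 to 1.25 kb and 37.7% from 1.25 to 1.5 kb, each band without its upper limit. It was 45.3% (41.4 to 49.1) from 1.5 to 2 kb, 43.8% (35.3 to 52.7) from 2 to 2.5 kb and 40.6% (29.5 to 52.9) at 2.5 kb or more. The share was higher in each successive band up to 2 kb, and the intervals of the 3 widest bands overlapped. The median maximum moved with width, from 97 in the narrowest band to 220, 232.5 and 253 in the 3 widest. Among peaks with a maximum of 150 to 249 only, the shares were 19.4%, 29.9%, 35.5%, 42.1%, 44.4%, 41.8% and 33.3% from the narrowest band to the widest, which then held 18 peaks. The bands of 1.5 kb or more did not stand above the band of 1.25 to 1.5 kb beyond their intervals once the maximum was held in that range.

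**Figure D2:**
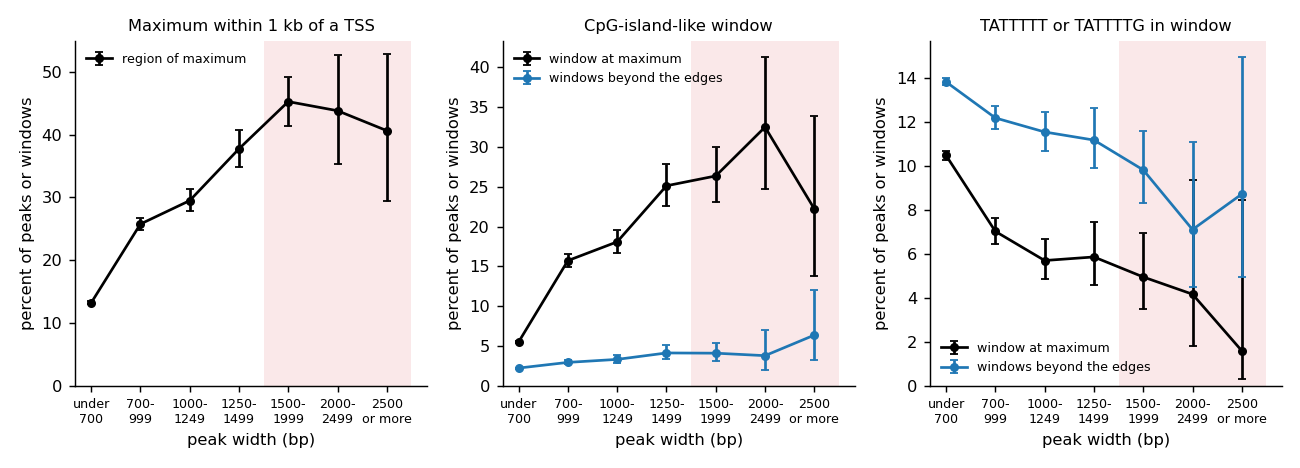
Shares in 7 bands of peak width in bp, for peaks with a maximum under 400. From left to right: region of maximum signal within 1 kb of a TSS, island-like window, and TATTTTT or TATTTTG in the window. Black points are percent of peaks, by the region of maximum or the window at the maximum. Blue points are percent of windows that begin 1 kb beyond the peak edges. Bars are 95% Wilson intervals, and the wide peaks are shaded. The share near a TSS runs from 13.2% below 0.7 kb to 45.3% at 1.5 to 2 kb and 40.6% at 2.5 kb or more.

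By the authors' classes, 459 wide peaks (56.2%, interval 52.8 to 59.5) were in promoters, which reach 3 kb from a TSS. A further 186 (22.8%) were in introns, 148 (18.1%) were distal intergenic, 13 were in exons and 11 in 3′ UTRs. Of all annotated peaks 24.6% were in promoters, 37.99% in introns and 31.9% distal intergenic. In peaks of 1.25 to 1.5 kb with the same limit on the maximum, the shares were 48.8%, 27.7% and 19.6% in that order. In the tall wide peaks they were 67.4%, 16.5% and 14.2%. The intervals of the wide peaks and of the 1.25 to 1.5 kb band overlapped for introns and distal intergenic DNA. For promoters they did not, with 45.7 to 51.8 in the narrower band. Of the 809 wide peaks outside scaffolds, 243 lay over 10 kb from the assigned TSS, against 57.5% of all peaks, and 25 lay over 100 kb away. The farthest was assigned to Zfp608 at -701629 bp, and the peak assigned to Shisa2, at 210914 bp, lay in intron 26 of 35 of a transcript of Atp8a2. The nearest annotated GENCODE TSS of any gene lay 52004 and 195556 bp from the centres of their maxima.

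An annotated GENCODE TSS lay inside 389 of the 809 peaks, 48.1% (44.7 to 51.5), against 29.2% of peaks of 1 to 1.5 kb and 60.4% of the tall wide ones. A wider peak has more room for a TSS, so this share rises with width by construction. In 356 peaks the TSS was that of any transcript of a protein-coding gene, called a coding TSS below. In 325 of these, all coding TSSs belonged to 1 gene, 31 covered TSSs of at least 2 genes, and 28 covered TSSs on both strands. The peak assigned to Tmem126b covered TSSs of Tmem126b and Dlg2.

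In the 328 peaks with coding TSSs on 1 strand only, distances were taken from the covered GENCODE TSS nearest to the centre of the maximum, since 250 of the 356 peaks covered several. This choice draws the maximum towards the TSS by construction. The peak reached a median of 930 bp upstream (quartiles 554.75 and 1257.25) and 897.5 bp downstream (555.5 and 1240.5). It reached further downstream than upstream in 162 of them, 49.4% (44.0 to 54.8). The centre of the maximum lay downstream in 170 and upstream in 158, with a median of 13.25 bp downstream and quartiles at -250.6 and 266.9 bp. No side of the TSS held more of these peaks beyond counting error. Single genes were lopsided in both directions. The Kmt2a peak reached 2915 bp upstream and 1245 bp downstream, and the Slc17a7 peak 96 bp upstream and 1971 bp downstream.

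**Figure D3:**
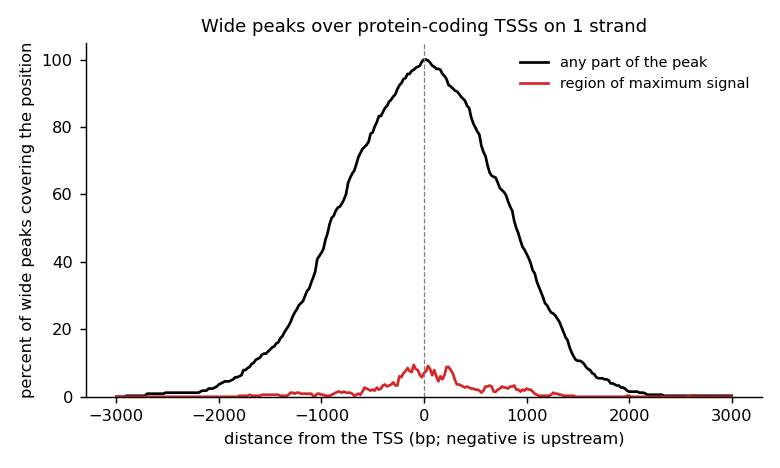
Percent of the wide peaks over coding TSSs on 1 strand that cover each position, by distance from the TSS in bp (negative is upstream), for any part of the peak (black) and for the region of maximum signal (red). The coverage is near symmetric, with a median reach of 930 bp upstream and 897.5 bp downstream.

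In the 200 bp window centred on the region of maximum signal, 218 of 809 wide peaks (26.9%, interval 24.0 to 30.1) were island-like, meaning a GC content of at least 50% and an observed over expected CpG ratio of at least 0.6. Windows that began 1 kb beyond either edge of the same peaks were island-like in 68 of 1616 cases (4.21%). The share at the maximum was 20.1% in peaks of 1 to 1.5 kb, 41.0% in the tall wide peaks and 7.18% in all peaks. In the band of 1.25 to 1.5 kb it was 25.1% (22.6 to 27.9), which overlaps the interval of the wide peaks. With the maximum held from 150 to under 250, the share in that band was 28.9%. It was then 24.6% from 1.5 to 2 kb, 30.9% from 2 to 2.5 kb and 22.2% at 2.5 kb or more. These wider bands did not stand above the 1.25 to 1.5 kb band beyond their intervals. Mean GC at the maximum was 58.5% ± 9.20 (SD over the 809 windows) against 48.4% ± 8.13 beyond the edges. The median peak held 23.4 CG dinucleotides per kb, against 10.6 in all peaks, 15.7 in peaks of 1 to 1.5 kb and 36.3 in tall wide peaks.

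These values differed with the place of the peak. Of the 389 peaks over a TSS, 189 were island-like (48.6%, interval 43.7 to 53.5), with a mean GC at the maximum of 62.6%. Of 89 peaks in the promoter class without a TSS inside, 12 were (13.5%), of 135 distal intergenic ones 9 (6.67%), and of 177 intronic ones 5 (2.82%). Median widths were 1731 bp over a TSS, 1655 bp in promoters without one, 1708 bp in introns and 1698 bp in distal intergenic DNA. Median maxima were 244, 199, 213 and 185 in the same order.

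The insulin response sequence was in the window at the maximum of 37 of 809 wide peaks (4.57%, interval 3.34 to 6.24). It was in 151 of 1616 windows beyond the edges (9.34%, interval 8.02 to 10.9), in 5.75% of windows at the maximum of peaks of 1 to 1.5 kb and in 9.96% of those of all peaks. The sequence was thus less frequent at the maximum than beside the peak, and the same held in the other sets, with 11.5% beside peaks of 1 to 1.5 kb, 5.53% at the maximum and 13.9% beside tall wide peaks, and 13.6% beside all peaks. GC, given above, was higher at the maximum of the wide peaks than beside them. The sequence is rich in A and T, and the part of GC in this difference was not tested. Over whole peaks, 336 held at least 1 copy (41.5%) and 473 held none. At least 1 copy was in 34.6% of peaks of 1 to 1.5 kb, 43.3% of tall wide peaks and 17.7% of all peaks. A wider peak has more room for a copy, so this share rises with width by construction. Per 10 kb, the wide peaks held 3.36 copies against 5.34 in all peaks, 4.26 in peaks of 1 to 1.5 kb and 2.98 in tall wide peaks.

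The most copies, 5, lay in the distal intergenic peak assigned to Borcs6, a subunit of the complex that positions lysosomes. The peaks at Peg13, an imprinted noncoding RNA, Xylt1, Snap25, a SNARE protein of synaptic vesicle release, and N4bp2 held 4 each, as did others among the 11 peaks with that number. By place, the sequence at the maximum was in 16 of 177 intronic peaks (9.04%, interval 5.64 to 14.2), in 7 of 135 distal intergenic peaks (5.19%) and in 11 of 389 peaks over a TSS (2.83%, interval 1.59 to 4.99).

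Other motifs were searched on both strands of the same windows. GGGCGG, the core of sites bound by Sp family factors, was in 26.7% of wide peaks at the maximum (23.8 to 29.9) and in 6.68% of windows beyond the edges. At the maximum it was in 19.4% of peaks of 1 to 1.5 kb, 37.8% of tall wide peaks and 8.47% of all peaks. TGACGTCA, the cAMP response element, was in 8 peaks (0.989%) against 0.124% beyond the edges, and GCATGCGC, a core of the NRF1 site, in 11 (1.36%) against 0.309%. In peaks of 1 to 1.5 kb these were in 0.583% and 1.06% of windows at the maximum, inside the intervals of the wide peaks (0.502 to 1.94 and 0.761 to 2.42). CAGCTG, an E-box, was in 14.2% (11.98 to 16.8) against 11.1% (9.64 to 12.7), and these intervals overlap. CACGTG was in 24 peaks (2.97%) against 2.78%, CCGGAAG in 16 (1.98%) against 1.05%, GATTGGCT in 7 (0.865%) against 0.371% and TGACGCAA in 1 (0.124%) against 0.186%. GGGCGG overlaps the CG dinucleotides counted above, so the 2 measures are not independent.

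Of 21938 protein-coding genes, 383 (1.75%, interval 1.58 to 1.93) had an annotated TSS under a wide peak, which is 6.04% of the 6345 genes with a TSS under any peak (28.9% of all). The authors' assignment, which takes in peaks away from the TSS, gave 661 protein-coding genes with a wide peak (3.01%). The lists below are counted against these shares, 28.9% for a peak of any width and 1.75% for a wide one, without a set test, and were chosen with earlier results of these data known.

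Of 25 genes for synaptic scaffolds and vesicle proteins, 8 (32%, interval 17.2 to 51.6) had a TSS under a wide peak, and 20 had one under a peak of any width. Among them were Dlg2, Shank3, Slc17a7, Snap25, Stx1a and Syt1. Shank3, a postsynaptic scaffold, had a peak of 2624 bp with a maximum of 261 and a total signal of 307590, the highest of the 8. Snap25 had the widest, 3197 bp with a maximum of 215. Slc17a7, the vesicular glutamate transporter VGLUT1, had a peak of 2068 bp with a maximum of 228, and a neighbouring wide peak of 1505 bp followed after a gap of 52 bp. Syt1, the calcium sensor of vesicle release, had a peak of 1667 bp with a maximum of 289. Dlgap3, Dlgap4 and Shank1, all postsynaptic scaffold genes, were assigned wide peaks that covered no TSS of theirs.

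Of 20 immediate early genes, which neurons switch on within minutes of activity, 4 (20%, interval 8.07 to 41.6) had a TSS under a wide peak. These were Egr3, Egr2 (2425 bp, maximum 281), Fos (2679 bp, maximum 170) and Nr4a3 (2171 bp, maximum 160), and 14 of the 20 had a TSS under some peak. Wide peaks away from the TSS were assigned to Arc (1970 bp, maximum 135, at -5011 bp), Ier5 (1567 bp, maximum 298, at 7197 bp) and Jun (1635 bp, maximum 150, at -55042 bp).

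Of 24 identity factors of excitatory neurons, 3 (12.5%, interval 4.34 to 31.0) had a TSS under a wide peak, among them Bcl11a (2637 bp, maximum 256) and Mef2c (1685 bp, maximum 263). Of 21 plasticity kinases and phosphatases 2 did (9.52%, interval 2.65 to 28.9), Camk2a (1715 bp, maximum 300) and Ppp3ca (1945 bp, maximum 222). Of 20 housekeeping genes 2 did (10%, interval 2.79 to 30.1), Ywhaz and Gapdh (1764 bp, maximum 358). Under some peak, 12, 14 and 13 genes of these 3 lists had a TSS, in the same order. The housekeeping list was thus also above both shares over all genes. Its interval for wide peaks overlapped those of the synaptic and immediate early lists. None of 20 interneuron, 14 astrocyte, 14 oligodendrocyte lineage, 14 microglia or 10 endothelial markers had a TSS under a wide peak. The upper bounds of the Wilson intervals for these zeros were 16.1%, 21.5%, 21.5%, 21.5% and 27.8%. All lie above the 1.75% over all protein-coding genes, so lists of this size cannot show a share below it. A peak of any width lay over a TSS of 9, 4, 0, 1 and 1 of these markers. These are 45%, 28.6%, 0%, 7.14% and 10%, against 28.9% of all protein-coding genes. Wide peaks elsewhere were assigned to Cnp and Mbp, both genes of myelin. Of 10 genes linked to PARIS in earlier work, 0 had a TSS under a wide peak (upper bound 27.8%) and 3 had one under some peak, both near the shares over all genes. These peaks come from 1 tissue library, so the cell type that gave each peak is not measured.

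**Figure D4:**
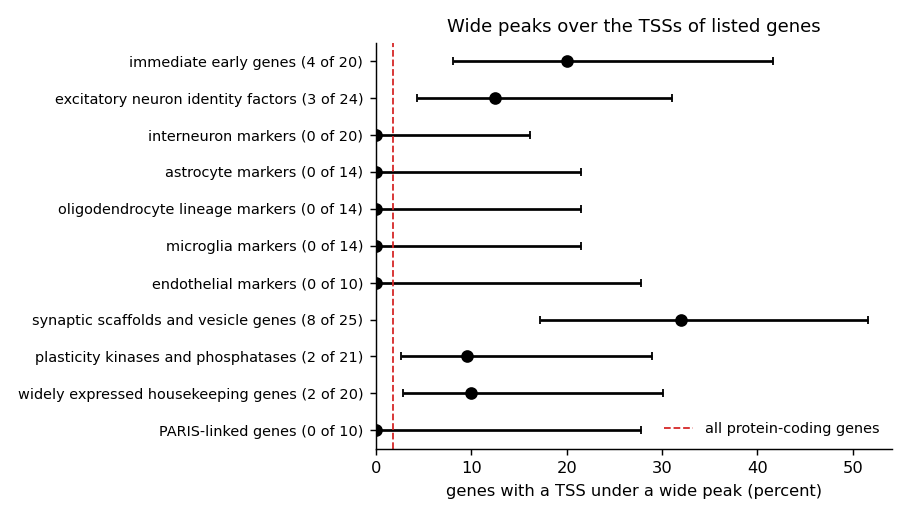
Percent of the genes of each list with an annotated TSS under a wide peak, with 95% Wilson intervals; the dashed line is the share over all protein-coding genes, 1.75%. The synaptic list is at 32% (8 of 25), the immediate early list at 20% (4 of 20) and the housekeeping list at 10% (2 of 20), with overlapping intervals.

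Outside scaffolds, 808 wide peaks carried the symbol of an assigned gene, 745 genes in all, of which 690 had 1 wide peak, 49 had 2 and 6 had 3 or more. Nrxn2, Rara, Rtn4rl2, Tspan9 and Ywhaz had 3 each, and Ccl21b had 3 on scaffolds that are not in this count. The 3 peaks of Nrxn2 were 3119, 1703 and 4458 bp wide, with maxima of 344, 140 and 341. Those of Rara, the retinoic acid receptor alpha, were 1601, 1855 and 1544 bp wide with maxima of 334, 254 and 373. Those of Ywhaz had maxima of 385 over the TSS and of 267 and 20 at 65446 and 55962 bp from it. The last 2 lay 3316 and 12805 bp from the nearest GENCODE TSS of any gene.

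Within 10 kb, a wide peak had a median of 2 other peaks (quartiles 1 and 4), against 1 for all peaks and 2 for those of 1 to 1.5 kb. Neighbouring wide peaks within 10 kb of each other formed 30 pairs, 24 of them assigned to the same gene, and 8 pairs had a gap under 1 kb. Beside Slc17a7 these short gaps were at Asic4 (99 bp), Rsph3b (116 bp), Nlgn2 (196 bp), Nat14 and Ssc5d (341 bp), Ptprs (353 bp), Kdm6b (571 bp) and Kif21b (834 bp). At Asic4, an acid-sensing ion channel, the pair measured 1880 and 2479 bp with maxima of 201 and 192. At Nlgn2, a neuroligin of inhibitory synapses, it measured 1538 and 1842 bp with maxima of 230 and 236.

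Gm20878 was assigned the most wide peaks, 5, all on chromosome 4 between positions 41922626 and 42440255. By GENCODE, those that start at 41941109, 42293305 and 42438416 covered a TSS of Gm20878, Gm21953 and Gm21586, in that order. A pair of the 5 peaks, each 1713 bp, had the same sequence with 0 mismatches, and total signals of 66978 and 66974. Another pair, each 1840 bp, also had 0 mismatches, with total signals of 187948 and 199162. Reads from identical copies cannot be told apart, so these are not separate measurements. Of the 9 wide peaks on scaffolds, 8 lay on scaffolds of the same chromosome, assigned to Ccl21b, Gm21953, Ccl27b, Gm13305 and Ccl19, and 1 had no annotation.

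Peaks with at least 80% of their bases repeat-masked numbered 27 of 809 (3.34%, interval 2.30 to 4.81), against 5.75% of all peaks, 1.999% of peaks of 1 to 1.5 kb and 1 of 217 tall wide peaks. Of the 27, 15 were intronic and 10 distal intergenic. None lay within 1 kb of a TSS, none covered one and none was island-like, for each of which the upper bound of the interval is 12.5%. Their median width was 2283 bp and their median maximum 79, against 1706.5 bp and 225 in the other 782.

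The masked peaks lay mostly at the low end of the maximum. They were 7 of the 16 peaks with a maximum under 50, 10 of 52 from 50 to 99, 6 of 258 from 100 to 199, 2 of 318 from 200 to 299 and 2 of 165 from 300 to 399. The share within 1 kb of a TSS ran the other way, at 0 of 16, 23.1%, 36.8%, 51.6% and 57.0% in the same bands. The lowest maxima belonged to peaks assigned to Snx9 (7), Prdm6 (10), Csnk1e (10), Aacs (11) and Atg7 (11). The part of repeats in the width of these peaks was not tested. Without the masked peaks the share of annotated wide peaks within 1 kb of a TSS was 46.2% and the island-like share 27.9%.

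**Figure D5:**
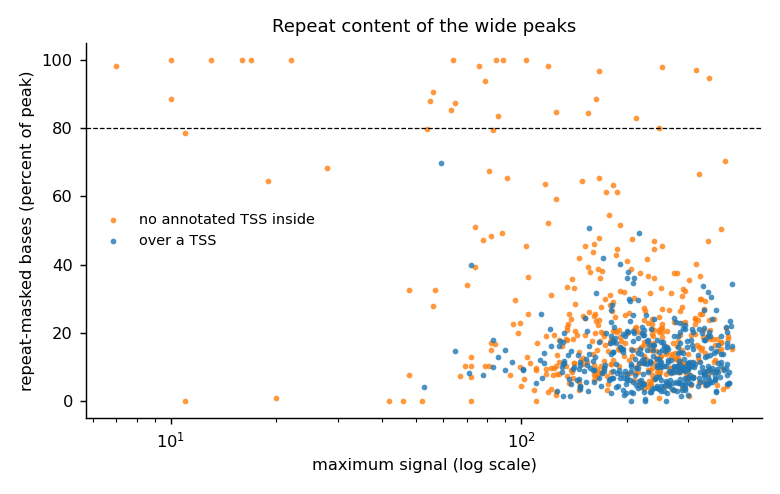
Repeat-masked bases as a percent of the peak against maximum signal (log scale) for the 809 wide peaks, with peaks over an annotated TSS in blue and the others in orange; the dashed line marks 80%. All 27 peaks at or above the line are orange, and 17 of them have a maximum under 100.

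Wide peaks numbered between 0.173 per Mb of assembled sequence on chromosome 3 and 0.517 on chromosome 15 among the autosomes. On chromosome X there were 14, or 0.0856 per Mb, and their density over that of the autosomes was 0.258 (interval 0.153 to 0.436). The ratio for all peaks was 0.296 (0.283 to 0.310), inside the interval of the wide ones, and the labels do not give the sex of the mice.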

How the data were processed

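Peaks were measured in 1 anti-FLAG CUT&Tag library of mouse hippocampus. Per the labels' protocols, the authors used Bowtie2 for alignment to mm10, filtered out duplicates and reads of low quality, and used SEACR with IgG as its control. The deposited total and maximum signal are coverage values of the authors. Their scaling, the SEACR mode and stringency, the annotation tool and all upstream versions are not given in the sources used here. The deposited annotation table, joined by the region of maximum signal, gave the class, gene and distance to the TSS, and its total signal equalled that of the peak list for all 99782 annotated peaks.

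TSSs came from GENCODE M21, and sequence and repeat masking from the RefSeq FASTA of GRCm38.p6, the build of mm10. Coordinates count from 1. Windows, motifs, shares with 95% Wilson intervals and the alternatives were computed with Python 3.11.15, pandas 2.3.3, pysam 0.24.0 and scipy 1.17.1, and the scripts were tested on simulated data. Shares from the authors' annotation use the 817 annotated wide peaks, and all others the 809 on chromosomes 1 to 19, X and Y. No test between conditions was made, and a few genes and 1 sequence that the rules would name are not reported here.

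Genes were named by rule: the 10 widest peaks, the 10 with the highest total, the 5 highest and 5 lowest by shape, the 5 farthest from the assigned TSS, the genes with the most wide peaks, list genes with a TSS under one, the 5 peaks with the most insulin response sequences, and those at the limits. Genes of list members with wide peaks elsewhere, of neighbouring pairs, of the lowest maxima and of scaffolds were added after their values were seen. The members and gene lists were chosen with earlier results of these data known. The split by place, the bands at a maximum of 150 to 249, the split by maximum, repeat masking, the pairs, the chromosome 4 copies and the 60 bp windows were added after the data were seen.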

Additional observations from a re-analysis of the deposited data

How the results depend on the processing

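No paired analysis was possible because each antibody has 1 library, so leaving out a replicate was not possible either. Of 73 alternatives over 9 results, 45 left the value within its interval (for counts, within 1.5 times). None of those without the repeat-masked peaks, which were added after the data were seen, moved a value. Number of wide peaks, 818: 2179 from 1200 bp, 185 from 2000 bp and 4949 after peaks within 1 kb were merged. Share within 1 kb of a TSS, 44.7%: 39.1% from 1200 bp, 32.3% merged, 33.5% within 500 bp, 56.2% within 3 kb and 49.3% from the middle of the peak. This share was 40.2% with GENCODE TSSs of protein-coding transcripts of protein-coding genes only. Promoter share, 56.2%: 50.5% from 1200 bp, 52.6% with a maximum under 300 and 43.7% merged. Intron share, 22.8%: 26.8% from 1200 bp, 25.9% from 2000 bp and 30.5% merged. Distal intergenic share, 18.1%: 20.998% merged. Island-like share, 26.9%: 18.04% merged and 19.2% with a GC of at least 55% and a ratio of at least 0.75. Insulin response sequence share, 4.57%: 3.28% from 2000 bp, 6.28% merged, 9.27% in 400 bp windows and 7.17% at the middle of the peak. Genes with a TSS under a wide peak, 1.75%: 3.72% from 1200 bp, 0.442% from 2000 bp, 2.36% without the limit on the maximum, 1.29% with a maximum under 300 and 7.91% merged. Density ratio of chromosome X, 0.258: 0.497 from 2000 bp. The numbers of peaks and genes and the longer distances and windows move by construction, and the cause of the other moves was not tested. With 1 library and no depth, none of these values has a biological error.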
